A study of Mus musculus with 6 samples.

Results

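The Hox genes and their partners Cdx and Evx, which set position along the body axis, were read in day 3 embryoid bodies with and without induced Lef1. Members were the 39 Hox genes of the 4 clusters with Cdx1, Cdx2, Cdx4, Evx1 and Evx2, found by symbol in the authors' gene table. These 44 genes occupy 39 of the 36699 rows, because 5 rows join a pair of members. Evx1 rose about 10-fold and was the 1 member called. All 39 rows stayed below 1 FPKM (sequenced fragments scaled to transcript length and library size) in both groups, and 27 of them carry the status NOTEST: the table lists an unadjusted p for them, but they were left out of the adjusted testing, with q set to 1. Rows called tested below are those with the status OK.

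The cells were A2Lox.cre mouse embryonic stem cells, a line that carries 1 doxycycline-inducible transgene, here Flag-tagged Lef1. They were grown on primary fibroblast feeders of an FVB mouse strain, freed of feeders and cultured in suspension as embryoid bodies, the aggregates in which stem cells begin to differentiate. In the plus_Dox group (3 libraries, numbered 1, 2 and 3) doxycycline (Dox) was added on day 2 and RNA was taken 24 h later, on day 3. The minus_Dox group (3 libraries, numbered 1, 3 and 4) had the same cells and the same day of harvest without Dox. Both groups therefore carry the transgene, and no library with Dox but without the transgene was analysed here. The comparison asked which genes respond to Lef1, a factor that binds DNA and recruits beta-catenin when Wnt signals arrive.

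Hox genes encode homeodomain transcription factors and lie in clusters in which low-numbered paralogues are switched on first and act in the head and neck, and high-numbered ones are switched on later and act in the trunk, tail and limb ends. In the mouse embryo the first Hox transcripts appear in the posterior primitive streak. Cdx factors activate central Hox genes and are themselves known targets of Wnt and Fgf signals, and the Evx genes lie beside the last paralogue of the HoxA and HoxD clusters.

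The table gives 1 FPKM value per group, made by the authors over its 3 libraries, and the values below are those values. They carry no standard deviation, the depth of each library is unknown, and whether libraries came from separate cultures is not stated, so the authors' test may measure technical spread only. Each standard error (SE) is the one implied by the authors' statistic, and an interval is the 95% range that follows from it. A call means a q-value (p adjusted over all tested genes) of at most 0.05 in the authors' deposited table. Tested rows listed at 0 in 1 group have no finite fold. They were never counted as called but stay in the total of tested rows. Lef1 itself had 51.0 FPKM in plus_Dox and 7.56 FPKM in minus_Dox in the authors' deposited table. Transcripts of the transgene and of the endogenous gene cannot be told apart in these values. The pluripotency and epiblast factors Sox2 (30.9 FPKM in plus_Dox, 56.2 FPKM in minus_Dox) and Otx2 (100.0 FPKM in plus_Dox, 108 FPKM in minus_Dox) were high in the authors' deposited table, both genes that stem cells and their early derivatives express. Over all tested rows that reached 1 FPKM in either group, the log2 fold had a median of 0.20, a shift of the whole table against which the folds below can be read.

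**Figure D1:**
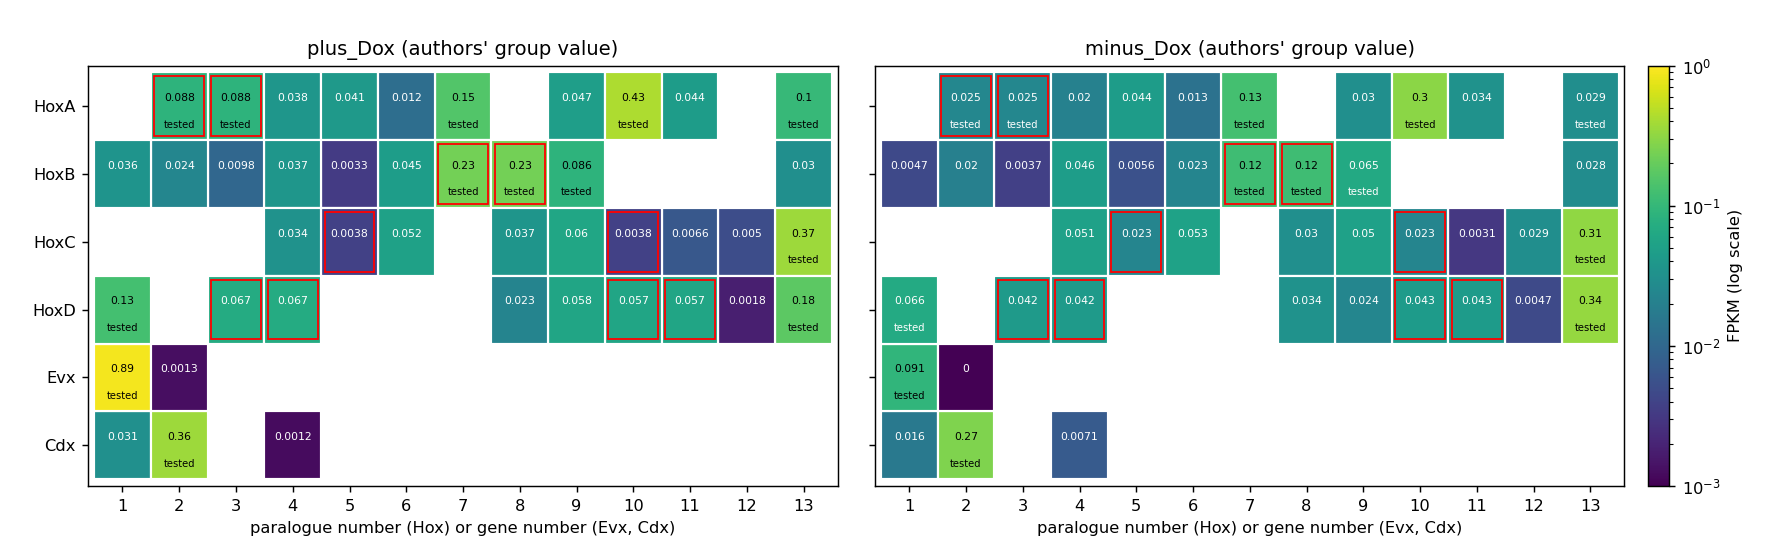
FPKM of the reported Hox, Evx and Cdx genes in plus_Dox (left) and minus_Dox (right), by cluster (rows) and paralogue or gene number (columns), with colour on a log scale and 0 drawn in the darkest colour. Red frames mark genes that share a row, and "tested" marks rows with the status OK; Evx1 is the brightest cell in plus_Dox at 0.887 FPKM and is far darker in minus_Dox at 0.0906 FPKM.

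Evx1, an even-skipped homeobox gene of the posterior primitive streak and later of spinal interneurons, had 0.887 FPKM in plus_Dox and 0.0906 FPKM in minus_Dox in the authors' deposited table. It ranked 1 of the 39 member rows in plus_Dox and 8 in minus_Dox, and it made up 22.2% of the summed FPKM of all member rows in plus_Dox and 3.49% in minus_Dox. Evx1 was 9.79-fold higher in plus_Dox (95% interval 6.01 to 15.9, log2 fold 3.29 with SE 0.36, q listed as 0 in the authors' deposited table). A larger log2 fold was found in 20 rows called higher. The level itself stayed low, since 68.0% of all tested rows lay above Evx1 in plus_Dox and 92.9% in minus_Dox. The rise passed after subtraction of the shift of the table (log2 fold 3.09) and after removal of a trend on transcript GC content and length (2.78).

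The Evx1 row lies on chromosome 6 between 52258382 and 52268372 (mm9, per the submitters' processing notes), and its span also holds the row 5730457N03Rik, which RefSeq names Evx1os, an antisense RNA gene. In RefSeq (GRCm38) the genes overlap on opposite strands over 1335 bases. Evx1os had 0.309 FPKM in plus_Dox and 0.0384 FPKM in minus_Dox in the authors' deposited table (log2 fold 3.01 with SE 1.38, unadjusted p = 0.029, q = 0.15). It did not pass, and its 95% interval of 0.31 to 5.71 covers that of Evx1. No source used here states that counting used the strand, so reads from where the genes overlap cannot be told apart. How much of either value comes from the overlap is unknown.

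The 300 bases around the annotated start of Evx1 (250 before, 50 after) are shown because Evx1 was the gene that rose, those of Hoxa13 because it is the nearest member on the chromosome, and those of Cdx2 because it was the best expressed Cdx gene. They are RefSeq promoters on GRCm38.p6, given 5′ to 3′ on the strand of the gene, with each match to CTTTG, the core of the Lef/Tcf binding motif, in capitals (either strand).
Evx1 (chr6:52313248-52313547, plus strand): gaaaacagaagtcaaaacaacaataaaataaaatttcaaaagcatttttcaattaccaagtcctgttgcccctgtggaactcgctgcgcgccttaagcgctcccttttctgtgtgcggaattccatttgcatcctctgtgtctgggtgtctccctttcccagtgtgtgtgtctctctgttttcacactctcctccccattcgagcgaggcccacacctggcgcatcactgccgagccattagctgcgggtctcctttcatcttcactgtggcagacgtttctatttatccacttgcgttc
Hoxa13 (chr6:52260831-52261130, minus strand): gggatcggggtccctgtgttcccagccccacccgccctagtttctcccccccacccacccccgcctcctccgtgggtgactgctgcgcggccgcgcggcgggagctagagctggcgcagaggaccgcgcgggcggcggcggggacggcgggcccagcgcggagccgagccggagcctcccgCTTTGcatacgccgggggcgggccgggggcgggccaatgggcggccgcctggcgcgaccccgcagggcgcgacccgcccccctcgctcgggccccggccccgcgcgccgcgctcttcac
Cdx2 (chr5:147307200-147307499, minus strand): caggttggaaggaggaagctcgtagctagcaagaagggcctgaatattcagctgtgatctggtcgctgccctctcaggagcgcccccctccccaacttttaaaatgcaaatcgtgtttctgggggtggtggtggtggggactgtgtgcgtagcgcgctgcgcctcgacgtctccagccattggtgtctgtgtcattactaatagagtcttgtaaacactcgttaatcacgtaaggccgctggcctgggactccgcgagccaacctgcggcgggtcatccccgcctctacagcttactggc
The Evx1 and Cdx2 windows hold 0 matches to CTTTG and the Hoxa13 window holds 1. RefSeq gave 28 promoters for 26 of the 44 members, of which 16 (57.1%) hold CTTTG, against 53.9% of all 32851 promoters. The Evx1 window has 48.7% GC and 12 CpG pairs and the Hoxa13 window 81.0% and 45, beside a median of 56.5% and 14.5 over the member promoters and 52.7% and 7 over all promoters.

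The longer motif CTTTGAA or CTTTGAT (either strand, each of which contains CTTTG) was in 3 of the 28 member promoters and in 8.65% of all promoters. The 3 stretches are shown because they are the member promoters with a full match, which is in capitals, on the strand of the gene in GRCm38.p6.
Hoxd12 (chr2:74674968-74674996, plus strand): gaaatgaccggCTTTGAAgaacctgcagg
Hoxd8 (chr2:74704451-74704479, plus strand): aaaaagcaggaCTTTGATtcgCTTTGATa
Hoxa11 (chr6:52245770-52245798, minus strand): cacggatccgcTTCAAAGaggcagctgca
The match starts at position -34 from the gene start in Hoxd12, at -153 in Hoxd8, which holds 2 copies, and at 24 on the opposite strand in Hoxa11. All 3 genes were NOTEST. In the authors' deposited table Hoxa11 had 0.0443 FPKM in plus_Dox and 0.0339 FPKM in minus_Dox, Hoxd8 had 0.0226 FPKM in plus_Dox and 0.0337 FPKM in minus_Dox, and Hoxd12 had 0.00179 FPKM in plus_Dox and 0.00472 FPKM in minus_Dox. The first is thus higher in plus_Dox and the other two lower, all near 0. A match of letters is no evidence of binding.

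Of the 39 member rows, 12 (14 genes) were tested and 27 (30 genes) were NOTEST, or 69.2% of the member rows against 49.4% of all rows. Among the 12 tested rows 1 was called higher and 0 lower in the authors' deposited table. Over all 18114 tested rows 12.2% were called, 8.98% higher and 3.22% lower, so 1 in 12 (8.33%) is near the share of the whole table. Among tested rows below 1 FPKM in both groups, where every member lies, 1.88% were called higher and 1.06% lower. An unadjusted p under 0.05 was reached by 2 of the 12, Evx1 and Hoxd13. Tested and untested member rows were separated by their plus_Dox level: in the authors' deposited table the highest untested row had 0.0674 FPKM and the lowest tested row 0.0862 FPKM in plus_Dox. In minus_Dox they overlapped, with an untested row at 0.0531 FPKM and a tested one at 0.0248 FPKM. A row that reached the test through 1 group alone had to differ, so counts and median folds over tested members are no support for a common change. The value was higher in plus_Dox in 11 of the 12 tested rows and in 16 of the 27 untested rows, and 10 rows in plus_Dox and 7 in minus_Dox reached 0.1 FPKM. All member rows summed to 4.0 FPKM in plus_Dox and 2.59 FPKM in minus_Dox in the authors' deposited table, and without Evx1 to 3.12 FPKM in plus_Dox and 2.50 FPKM in minus_Dox.

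**Figure D2:**
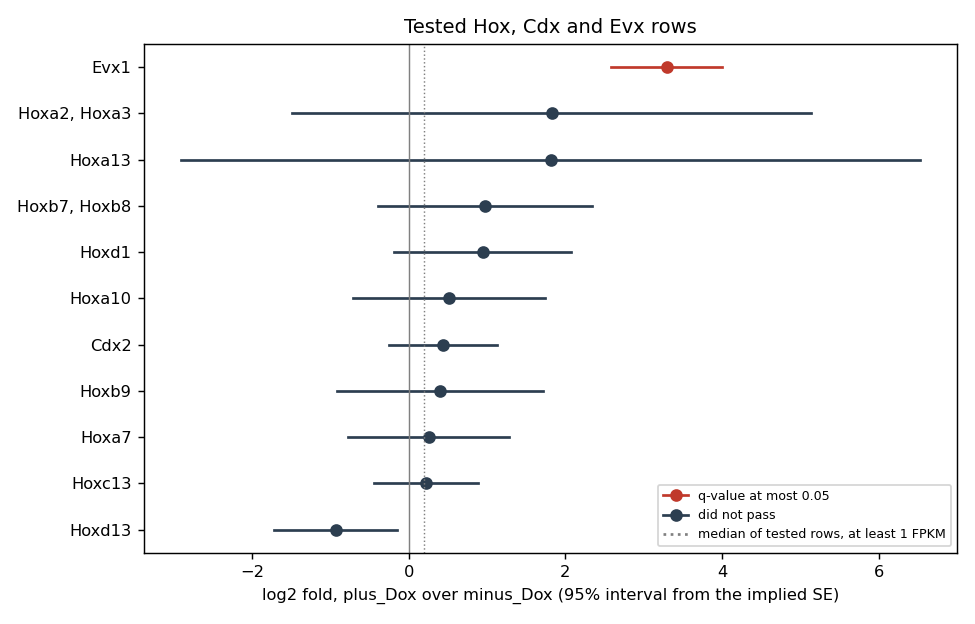
Log2 fold of plus_Dox over minus_Dox for the 11 reported of the 12 tested Hox, Cdx and Evx rows, with the 95% interval from the implied SE; red marks a q-value of at most 0.05 and the dotted line the median of tested rows with at least 1 FPKM. The Evx1 interval starts at 2.59, above the whole interval of all other rows drawn except Hoxa2 with Hoxa3 and Hoxa13, whose intervals are the widest.

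The other 11 tested rows did not pass, with q-values of 0.11 or more and log2 folds from -0.94 to 1.83 in the authors' deposited table. This does not show that they kept their level. Their implied SE ran from 0.34 to 2.41, and for 7 of the 11 the 95% interval stayed below a 4-fold rise. For 9 of the 11 the whole interval lay below that of Evx1, which starts at a log2 fold of 2.59. The exceptions were Hoxa13 and the row of Hoxa2 and Hoxa3, whose intervals reach 6.54 and 5.14. Evx1 had the largest fold of all tested member rows, so this count follows in part from that choice. The share over all tested rows was not taken.

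Cdx2, needed for the trophectoderm and for growth of the posterior body, had 0.361 FPKM in plus_Dox and 0.266 FPKM in minus_Dox in the authors' deposited table. The difference did not pass (log2 fold 0.44 with SE 0.35, q = 0.52), and its 95% interval of 0.842-fold to 2.19-fold lies below that of Evx1. After removal of the GC and length trend the Cdx2 log2 fold was -0.053. Cdx1, which acts in the pattern of the vertebrae, had 0.0309 FPKM in plus_Dox and 0.0163 FPKM in minus_Dox, and Cdx4, a partner of the other Cdx genes in axis growth and blood formation, had 0.00122 FPKM in plus_Dox and 0.00708 FPKM in minus_Dox in the authors' deposited table; both rows were NOTEST. Evx2, the limb and spinal cord gene beside Hoxd13, had 0.0013 FPKM in plus_Dox, was listed at 0 FPKM in minus_Dox in the authors' deposited table and was NOTEST. In plus_Dox, Evx2, Cdx1 and Cdx4 thus stood far below Evx1 and Cdx2.

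In HoxA, 5 of 10 rows were tested and 0 called. Hoxa10, known for its part in the uterus and limb, was the best expressed Hox row in plus_Dox, with 0.426 FPKM against 0.299 FPKM in minus_Dox in the authors' deposited table (log2 fold 0.51 with SE 0.63, q = 0.75). This difference was smaller than its implied error. Hoxa7, a trunk gene, had 0.152 FPKM in plus_Dox and 0.128 FPKM in minus_Dox in the authors' deposited table (log2 fold 0.25, q = 0.90). Hoxa13, the last paralogue, which acts in the digits and the hindgut, had 0.103 FPKM in plus_Dox and 0.0292 FPKM in minus_Dox in the authors' deposited table (log2 fold 1.81 with SE 2.41, q = 0.78). The joint row of Hoxa2 and Hoxa3, hindbrain and pharyngeal genes, had 0.0878 FPKM in plus_Dox and 0.0248 FPKM in minus_Dox in the authors' deposited table (log2 fold 1.83 with SE 1.69, q = 0.61). Both point values exceed 3-fold with errors that span no change. The untested rows Hoxa4, Hoxa5, Hoxa6, Hoxa9 and Hoxa11 lay between 0.0118 FPKM (Hoxa6) and 0.0472 FPKM (Hoxa9) in plus_Dox, and between 0.0135 FPKM (Hoxa6) and 0.0438 FPKM (Hoxa5) in minus_Dox in the authors' deposited table. Hoxa2 with Hoxa3, Hoxa4, Hoxa5, Hoxa6 and Hoxa7 are assigned 1 common span that 9 rows share, so reads of overlapping transcripts may have been divided among them. The same limit holds in the other clusters. Rows with a common span there are Hoxb2 and Hoxb3, and Hoxb5 and Hoxb6. In HoxC they are Hoxc6, Hoxc8, Hoxc9 and Hoxc5 with Hoxc10, and in HoxD Hoxd8 and Hoxd3 with Hoxd4.

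**Figure D3:**
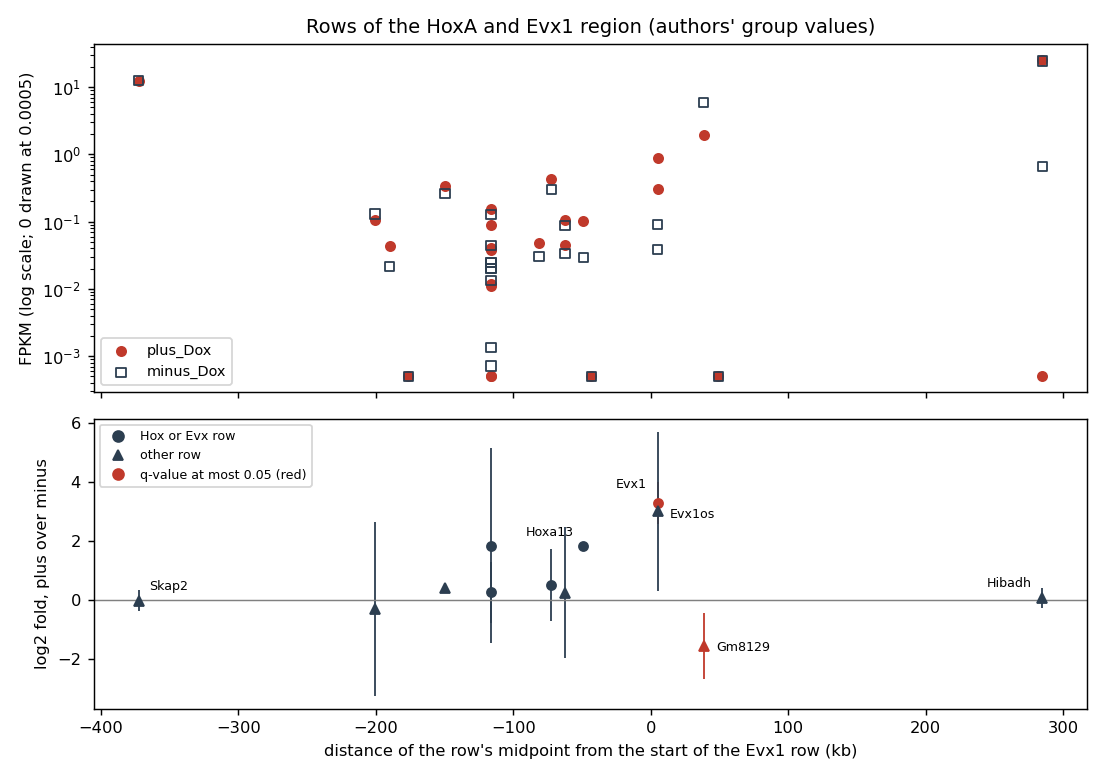
Rows of the HoxA and Evx1 region by distance of the row's midpoint from the start of the Evx1 row, with FPKM in plus_Dox (filled) and minus_Dox (open) above and the log2 fold of tested rows below, with 95% intervals drawn where the SE was under 2 and rows that share a span drawn at 1 position. Evx1 and Evx1os stand at log2 folds of 3.29 and 3.01 while Hoxa13 and the outer genes Skap2 and Hibadh carry no call and Gm8129 stands at -1.57.

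The rise of Evx1 had no called neighbour on the HoxA side. The Hoxa13 row ends 47.5 kb before the Evx1 row begins, and of the 8 non-member rows inside the span from the HoxA cluster to Evx1, Evx1os among them, 3 were tested and 0 called in the authors' deposited table. Skap2, an adaptor protein gene 143 kb beyond the far end of the cluster, had 12.4 FPKM in plus_Dox and 12.7 FPKM in minus_Dox in the authors' deposited table (log2 fold -0.03 with SE 0.18). On the other side, the pseudogene Gm8129, 28.4 kb past Evx1, fell, with 1.97 FPKM in plus_Dox and 5.86 FPKM in minus_Dox in the authors' deposited table (log2 fold -1.57 with SE 0.57, q = 0.047). As a pseudogene it can share reads with near-identical copies.

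In HoxB, 2 of 9 rows were tested and 0 called. The joint row of Hoxb7 and Hoxb8, trunk genes, had 0.233 FPKM in plus_Dox and 0.118 FPKM in minus_Dox in the authors' deposited table (log2 fold 0.97 with SE 0.70, q = 0.45). Hoxb9, a gene of the thoracic skeleton, had 0.0862 FPKM in plus_Dox and 0.0655 FPKM in minus_Dox in the authors' deposited table (log2 fold 0.40 with SE 0.67, q = 0.85). Hoxb1, the first paralogue, known as an early streak and hindbrain gene, was NOTEST with 0.0360 FPKM in plus_Dox and 0.00465 FPKM in minus_Dox in the authors' deposited table. Its unadjusted p in the authors' deposited table was 0.17. Hoxb2, Hoxb3, Hoxb4, Hoxb5, Hoxb6 and Hoxb13 were NOTEST too, between 0.00332 FPKM (Hoxb5) and 0.0454 FPKM (Hoxb6) in plus_Dox and between 0.0037 FPKM (Hoxb3) and 0.0461 FPKM (Hoxb4) in minus_Dox in the authors' deposited table. Within the cluster's span the predicted gene Gm11539 rose, with 7.61 FPKM in plus_Dox and 3.30 FPKM in minus_Dox in the authors' deposited table (log2 fold 1.21 with SE 0.27, q = 0.0003), and was named after its value was seen. Atp5g1, a mitochondrial ATP synthase subunit gene 119 kb outside the cluster, rose as well (log2 fold 0.95 with SE 0.16, in the authors' deposited table), with 415 FPKM in plus_Dox and 215 FPKM in minus_Dox. On the other side Snx11, a sorting nexin gene, had 11.1 FPKM in plus_Dox and 8.69 FPKM in minus_Dox in the authors' deposited table (q = 0.44).

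In HoxC, 1 of 8 rows was tested and 0 called. Hoxc13, a gene of hair and nails, had 0.366 FPKM in plus_Dox and 0.314 FPKM in minus_Dox in the authors' deposited table (log2 fold 0.22 with SE 0.34, q = 0.83). Its 95% interval of 0.734-fold to 1.84-fold was the narrowest of the Hox rows on the log scale. Hoxc4, Hoxc6, Hoxc8, Hoxc9, Hoxc11 and Hoxc12 were NOTEST, between 0.00503 FPKM (Hoxc12) and 0.0603 FPKM (Hoxc9) in plus_Dox, and between 0.00307 FPKM (Hoxc11) and 0.0531 FPKM (Hoxc6) in minus_Dox in the authors' deposited table. The remaining row joins Hoxc5 and Hoxc10, which are not neighbours, and had 0.00381 FPKM in plus_Dox and 0.0235 FPKM in minus_Dox in the authors' deposited table. The flanking genes Calcoco1 (log2 fold 0.27 with SE 0.19) and Smug1 (-0.06 with SE 0.21) did not pass in the authors' deposited table.

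In HoxD, 2 of 7 rows were tested and 0 called. Hoxd13, the digit and genital tubercle gene, had the highest minus_Dox value of all member rows, with 0.178 FPKM in plus_Dox and 0.340 FPKM in minus_Dox in the authors' deposited table. It was the lone tested member with a lower value in plus_Dox (log2 fold -0.94 with SE 0.40). In the authors' test it had an unadjusted p of 0.019 and q = 0.11 and did not pass. After subtraction of the table's shift it passed as lower (log2 fold -1.14, q = 0.048, where 6.10% of rows were called lower and 3.47% higher). With the GC and length trend removed instead it did not pass (-1.05, q = 0.20, where 0.876% were called lower and 1.35% higher). Hoxd1, the first paralogue, had 0.126 FPKM in plus_Dox and 0.0656 FPKM in minus_Dox in the authors' deposited table (log2 fold 0.94 with SE 0.57, q = 0.34). Hoxd8, Hoxd9, Hoxd12 and the joint rows of Hoxd3 with Hoxd4 and of Hoxd10 with Hoxd11 were NOTEST, between 0.00179 FPKM (Hoxd12) and 0.0674 FPKM (Hoxd3 with Hoxd4) in plus_Dox, and between 0.00472 FPKM (Hoxd12) and 0.0426 FPKM (Hoxd10 with Hoxd11) in minus_Dox in the authors' deposited table. The row 6720416L17Rik, which RefSeq names Haglr, an RNA gene beside Hoxd1 named after its value was seen, had 0.252 FPKM in plus_Dox and 0.0447 FPKM in minus_Dox in the authors' deposited table (log2 fold 2.49 with SE 1.30, q = 0.23) and did not pass. The flanking rows Mrpl23-ps1 (log2 fold 0.50 with SE 0.36) and Mtx2, a mitochondrial import gene (0.17 with SE 0.23), did not pass in the authors' deposited table.

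Summed over rows, the HoxA values of the authors' deposited table came to 1.14 FPKM in plus_Dox and 0.792 FPKM in minus_Dox, and those of HoxB to 0.504 FPKM in plus_Dox and 0.315 FPKM in minus_Dox. HoxC summed to 0.564 FPKM in plus_Dox and 0.555 FPKM in minus_Dox, and HoxD to 0.511 FPKM in plus_Dox and 0.553 FPKM in minus_Dox. The ratio of plus_Dox to minus_Dox was 1.44 for HoxA, 1.60 for HoxB, 1.02 for HoxC and 0.925 for HoxD. By paralogue number, rows of paralogues 1 to 3 summed to 0.473 FPKM in plus_Dox and 0.288 FPKM in minus_Dox, a ratio of 1.64, and all 6 had the higher value in plus_Dox. Paralogues 4 to 8 summed to 0.707 FPKM in plus_Dox and 0.567 FPKM in minus_Dox (ratio 1.25), with 5 of 12 rows higher in plus_Dox. Paralogues 9 to 13 summed to 1.47 FPKM in plus_Dox and 1.29 FPKM in minus_Dox (ratio 1.14), with 11 of 14 rows higher in plus_Dox. The ratio was largest for the low paralogues, yet 3 of those 6 rows were NOTEST, 0 of the 6 were called, and the sums have no error, so no order of the classes is read from them. Hoxd3 with Hoxd4 and Hoxc5 with Hoxc10 span classes and were left out of these sums.

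Hox transcripts also occur in embryonic fibroblasts, the kind of cell that served as feeder here. For the marker counts that follow, the share over all tested rows was 8.98% called higher and 3.22% lower. After subtraction of the shift 3.47% were called higher and 6.10% lower, and with the GC and length trend removed 1.35% and 0.876%. Of 16 feeder fibroblast markers, 14 were tested and 3 rose, Tagln, Acta2 and Twist1, and 0 fell. Their summed level was 237 FPKM in plus_Dox and 128 FPKM in minus_Dox, most of it in the contractile genes Tagln and Acta2. No marker was at 0 in both groups. After subtraction of the shift Tagln and Acta2 passed as higher and Pdgfra, a growth factor receptor, as lower (log2 fold -0.71). With the GC and length trend removed Tagln and Acta2 passed as higher (log2 folds 0.60 and 0.64) and 0 markers as lower. The collagen gene Col1a1 had 1.32 FPKM in plus_Dox and 0.888 FPKM in minus_Dox in the authors' deposited table (q = 0.13). Of 14 trophoblast markers, 1 of which is Cdx2, 11 were tested, the keratins Krt8 and Krt18 rose and 0 fell. Their summed levels were 374 FPKM in plus_Dox and 218 FPKM in minus_Dox, nearly all of it from Krt8 (173 FPKM in plus_Dox, 97.9 FPKM in minus_Dox) and Krt18 (194 FPKM in plus_Dox, 115 FPKM in minus_Dox, both in the authors' deposited table). The median log2 fold of the tested trophoblast markers was 0.24, neither keratin passed with the GC and length trend removed, and the placental hormone gene Prl3d1 was listed at 0 in both groups. Of 11 markers of posterior streak and extraembryonic mesoderm, 9 were tested and 2 rose, Evx1 itself and Snai1 (2.13 FPKM in plus_Dox, 1.11 FPKM in minus_Dox in the authors' deposited table), with summed levels of 9.33 FPKM in plus_Dox and 6.08 FPKM in minus_Dox. With the GC and length trend removed Snai1 did not pass (log2 fold 0.31), and Evx1 was the 1 marker of the list called. Of 11 anterior epiblast and neural plate markers, all tested, Sox2 and Pou3f1 fell and 0 rose (summed levels 162 FPKM in plus_Dox, 208 FPKM in minus_Dox), and the forebrain gene Six3 also passed as lower after subtraction of the shift. Of 12 visceral endoderm markers, Amn and Sox17 rose and 0 fell (204 FPKM in plus_Dox, 177 FPKM in minus_Dox). After subtraction of the shift Amn passed as higher, Sox17 did not pass, and Cubn passed as lower (log2 fold -0.61). With the GC and length trend removed neither Amn nor Sox17 passed, and Gata6 passed as lower (-0.72). The part of any of these cell types in the Hox, Cdx and Evx values was not tested, and in whole embryoid bodies more cells of a type cannot be told apart from more RNA per cell.

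**Figure D4:**
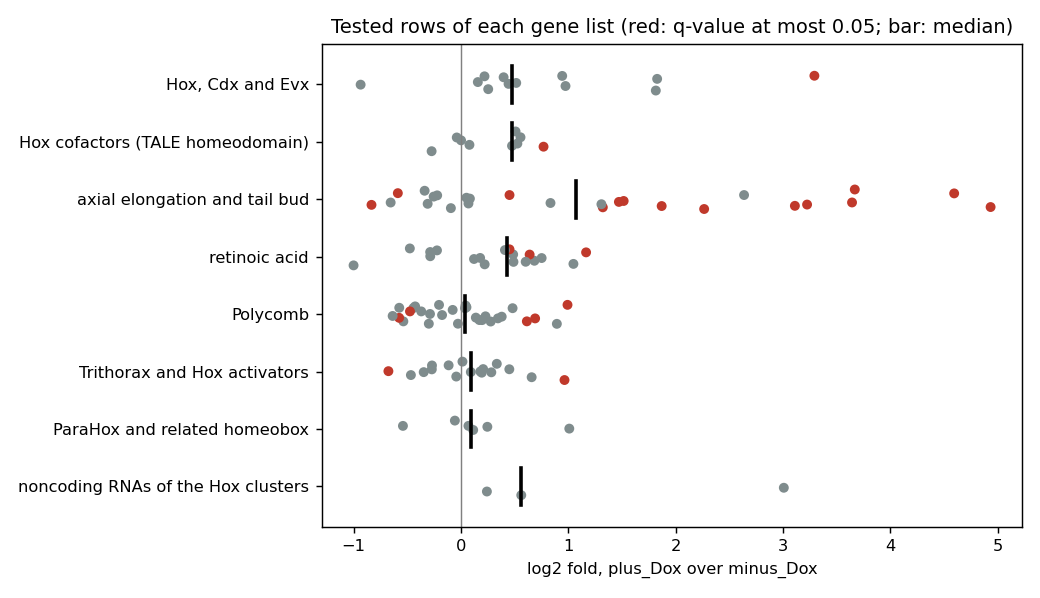
Log2 folds of plus_Dox over minus_Dox for tested rows of the Hox, Cdx and Evx genes and of 7 related gene lists, with 1 point per row, red for a q-value of at most 0.05 and a bar at the median. The axial elongation list spreads to a log2 fold of 4.93 (Wnt8a), while the Hox, Cdx and Evx rows hold 1 red point at 3.29.

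Among the related lists, calls were most frequent in genes of the streak and tail bud, beside 8.98% called higher and 3.22% lower over all tested rows. The list was chosen with earlier results of these data known and holds Wnt-induced genes, so its frequent calls are no independent support. Of 26 tested genes of axial elongation, 12 rose and 2 fell, with a median log2 fold of 1.07. Of the Hox, Cdx and Evx rows 1 of 12 rose, with a median of 0.48, and the median of all tested rows was 0.20. The 0.48 is no support for a common rise, because tested and untested members were separated by their plus_Dox level. The largest rises of the axial elongation list were Wnt8a, a streak ligand (3.63 FPKM in plus_Dox, 0.119 FPKM in minus_Dox), and Sp5, a Wnt-induced factor (1.48 FPKM in plus_Dox, 0.0615 FPKM in minus_Dox, both in the authors' deposited table). Fgf8 and T followed, with log2 folds of 3.67 with SE 0.23 and 3.64 with SE 0.42 in the authors' deposited table. Wnt5b had a log2 fold of 3.22 with SE 1.01 (95% interval 1.24 to 5.20) in the authors' deposited table, and did not pass with the GC and length trend removed (2.70, q = 0.19). Other genes of this list are chosen here after their values were seen: Fgf4 and Lin28b fell, and Wnt3a (0.0157 FPKM in plus_Dox, 0.0093 FPKM in minus_Dox) and the presomitic gene Msgn1 (0.00533 FPKM in plus_Dox, 0.0139 FPKM in minus_Dox) were NOTEST in the authors' deposited table. The levels of Wnt3a and Msgn1 were as low as those of the untested Hox rows. With the GC and length trend removed Fgf4 passed as lower (log2 fold -1.02) and Lin28b did not pass (-0.11). Median levels differed between the lists, 1.92 FPKM in plus_Dox and 0.564 FPKM in minus_Dox for the tested axial elongation genes, so the chance of a call differed too, and the difference between the lists was not tested. After subtraction of the shift 11 of the list rose and 2 fell, where 3.47% of all rows were called higher and 6.10% lower. With the GC and length trend removed 10 rose and 1 fell, where the shares were 1.35% and 0.876%.

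Hox proteins bind DNA with TALE homeodomain cofactors (Pbx, Meis and Pknox). All 9 were tested, Meis3 rose (9.98 FPKM in plus_Dox, 5.86 FPKM in minus_Dox, log2 fold 0.77 with SE 0.23, q = 0.012 in the authors' deposited table) and 0 fell. Calls over all tested rows were 8.98% higher and 3.22% lower. Pbx3, named after its value was seen, had 18.1 FPKM in plus_Dox and 17.1 FPKM in minus_Dox in the authors' deposited table, far above every Hox row. Meis3 did not pass after subtraction of the shift (log2 fold 0.57, q = 0.10) or with the GC and length trend removed (0.19).

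Retinoic acid switches on low-numbered Hox genes. Of 18 tested genes of its synthesis, breakdown and reception, 3 rose and 0 fell, with a median log2 fold of 0.43. The share over all tested rows was 8.98% higher and 3.22% lower. Among the 3 that rose were Dhrs3, a retinaldehyde reductase (4.01 FPKM in plus_Dox, 1.79 FPKM in minus_Dox, log2 fold 1.16), and Cyp26a1, which degrades retinoic acid (37.7 FPKM in plus_Dox, 27.6 FPKM in minus_Dox, q = 0.049), both in the authors' deposited table. Of the 3, Dhrs3 alone passed after subtraction of the shift, and none with the GC and length trend removed, where Crabp2, a retinoic acid binding protein, passed as lower (log2 fold -0.74). Shares over all rows were 3.47% higher and 6.10% lower after the subtraction, and 1.35% and 0.876% with the trend removed.

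Polycomb proteins keep Hox clusters silent and Trithorax proteins counter them. Of 29 tested Polycomb genes 3 rose and 2 fell, with a median log2 fold of 0.04. The whole table had 8.98% of tested rows called higher and 3.22% lower. Ring1, Phf1 and Phc2 rose (log2 folds 0.99, 0.69 and 0.61 in the authors' deposited table). Rnf2, like Ring1 a ubiquitin ligase of Polycomb complex 1, fell (22.4 FPKM in plus_Dox, 33.4 FPKM in minus_Dox, log2 fold -0.58, q = 0.0072 in the authors' deposited table), as did Rybp (-0.48). After subtraction of the shift none of the rises passed, and 3 genes passed as lower, Rnf2, Rybp and Suz12, a subunit of Polycomb complex 2 (log2 fold -0.84). With the shift subtracted 3.47% of all rows were called higher and 6.10% lower. Of 17 genes listed as Trithorax genes or activators, Kdm6a, a demethylase that removes the Polycomb mark, fell (8.09 FPKM in plus_Dox, 12.9 FPKM in minus_Dox, log2 fold -0.68 in the authors' deposited table). Zfp703, below 1 FPKM and named after its value was seen, rose, and whether it belongs to either kind was not checked. After subtraction of the shift Kdm6a and Myst3, a histone acetyltransferase (log2 fold -0.55), passed as lower and 0 genes as higher. With the GC and length trend removed, 0 genes of the Polycomb and Trithorax lists passed. Only 1.35% of all rows were called higher and 0.876% lower in that setting.

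Homeobox genes related to the Hox family, among them Gsx1 and Pdx1 of the ParaHox cluster that holds Cdx2, had 6 tested rows of 10 and 0 calls, and all 10 lay below 1 FPKM. At that level 1.88% of all tested rows were called higher and 1.06% lower. The best expressed of the 10 were En2 (0.122 FPKM in plus_Dox, 0.178 FPKM in minus_Dox) and En1 (0.156 FPKM in plus_Dox, 0.132 FPKM in minus_Dox in the authors' deposited table). Of 10 listed noncoding RNA rows, 3 were tested and 0 called. The 2 with the highest mean were Evx1os and 1700003F12Rik, and 1700003F12Rik lies on chromosome 2 from 154370134 to 154384626 (mm9), outside the HoxD cluster, so the list was wrong to hold it. The microRNA rows Mir10b, Mir196a-1, Mir196a-2 and Mir615 were listed at 0 FPKM in both groups, and libraries of polyadenylated, fragmented RNA do not measure mature microRNAs.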

How the data were processed

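RNA of 6 libraries (3 plus_Dox, 3 minus_Dox) was poly(A)-captured, fragmented and reverse transcribed with random primers, per the labels' protocols. Cuffdiff, Cufflinks 2.0.2, Picard, Bowtie, TopHat2 2.0.8 and mm9 are listed without roles in the submitters' processing notes; which annotation was used is not stated there. Per the file headers, the authors deposited 1 FPKM value per group and row, a log2 fold change, a test statistic (a score without fixed range), a p-value and a q-value. The deposited table holds 0 columns of single libraries, and the authors' own test was therefore used in place of a new fit.

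Folds were checked to be log2 ratios of the FPKM values, p-values to be normal tails of the statistic and q-values to be Benjamini-Hochberg values over the 18114 tested rows. The SE is the log2 fold divided by the statistic. For 2 alternatives, p came from the normal tail with this SE and was adjusted over all rows used: subtraction of the median fold, and removal of a spline trend (6 knots, rows weighted by 1/SE squared) on GC content and length from GENCODE vM21, known for 95.4% of tested rows with an SE. Both steps were tested on simulated data with normal errors of the same SE. That setting cannot show how they perform on low counts or with errors of another shape. Python 3.11.15, pandas 2.3.3, numpy 2.4.6 and scipy 1.17.1 were used.

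Members and lists were chosen with earlier results of these data known. Named genes outside the members were Lef1, the nearest tested gene with at least 1 FPKM on each side of a cluster, and in each pathway list the called genes reaching 1 FPKM, up to 5 by size of fold, or the 2 genes of highest mean where there was none. Names outside this rule are said to be so or are those that passed under an alternative alone, and cell type markers serve as a check only. Some genes that the rule covers stand in the counts but are not reported here by name. Counts of several lists hold shared genes.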

Additional observations from a re-analysis of the deposited data

How the results depend on the processing

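The count of 1 member called higher was the same at q-value thresholds of 0.01 and 0.1, with at least 2-fold, in rows of 1 gene, with median-ratio scaling and with the GC and length trend removed. It was 0 with a minimum of 1 FPKM, which no member reaches. The count called lower was 0 throughout, except for 1 (Hoxd13) with median-ratio scaling. The median log2 fold of tested members, 0.48, was 0.28 with that scaling, 0.14 with the trend removed (added after the data were seen), 0.083 as a difference of log2(FPKM + 1) and 0.37 as one of log2(FPKM + 0.1). This median could not be given at 1 FPKM. Tested and untested members were separated by their plus_Dox level, so no common rise is read from it. The summed FPKM of all members had a plus_Dox over minus_Dox ratio of 1.54, which was 1.34 with the scaling and 1.24 without Evx1 (both added after the data were seen). Over the pathway lists, 19 rises and 5 falls became 12 and 0 with at least 2-fold, and 12 and 7 with the scaling. Over all rows the share called higher went from 8.98% to 3.47% with the scaling, and the share called lower from 3.22% to 6.10%. The share over all rows at 2-fold was not taken. The folds of 3 reported members that did not pass changed sign with the trend removed, where Cdx2 stood at -0.053, Hoxa7 at -0.056 and Hoxc13 at -0.15. The cause was not tested. No paired analysis was possible because the table holds 1 value per group, and leaving out single libraries was not run for the same reason. Levels under 1 FPKM at unknown depth limit every statement on these genes.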
